A study of Mus musculus with 2 samples.

Results

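Replicate 1-only promoter peaks are stretches of open chromatin near transcript starts that were called in 1 of 2 thymus libraries and not in the other. They were taken from the shorter peak list of the library labelled replicate 1. A peak was a member when it lay within 1 kb of any GENCODE vM21 transcript start and overlapped no peak, by even 1 bp, in either peak list of the library labelled replicate 2. This gave 11113 members among 33028 promoter peaks of that list, or 33.6%, and among 85367 peaks in all. The members were chosen by the peak calls of both libraries, so their signals and the absence of a peak in the library labelled replicate 2 are descriptions, and no test was made.

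In DNase-seq the nuclease DNase I cuts chromatin where it is accessible, and the cuts are sequenced. The study holds 2 such libraries from thymus of male B6CASTF1/J mice, an F1 hybrid strain, aged 36 days, with no treatment or engineered allele in the labels. Both libraries form 1 group. They are labelled biological replicates 1 and 2, yet share 1 donor identifier, which leaves unclear how many mice they represent. The files used give no read counts, and sequencing depth is therefore unknown. In the library labelled replicate 1 the shorter list held 85367 peaks and the longer 126824, against 60644 and 88164 in the library labelled replicate 2.

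The library labelled replicate 1 went against its tissue label at the defining markers. Of 29 T cell and thymocyte genes, 8 had a promoter peak in the library labelled replicate 1, against 28 in the library labelled replicate 2. Here and below, promoter peaks of a gene were counted in the shorter list of the library labelled replicate 1. For the library labelled replicate 2 they were counted in either list, so the 2 counts are not like for like. Over all 21951 protein-coding genes these were 13843 (63.1%) and 14190 (64.6%). For the T cell receptor subunit gene Cd3e and the coreceptor gene Cd8a, 2 examples picked after their values were seen, the library labelled replicate 1 had no promoter peak, against signals of 5.66 and 10.1 in the library labelled replicate 2. Within 5 kb of the 29 genes lay 58 distinct peaks in the library labelled replicate 1, against 349 in the library labelled replicate 2. Such peaks within 5 kb were counted in the shorter list of each library, and not over all protein-coding genes. By contrast, all 5 genes that mark the members, Pnlip, Cela2a, Ctrb1, Hnf4a and Cldn3, had promoter peaks in the library labelled replicate 1 and none in the library labelled replicate 2. Of 20 thymic epithelium genes, 11 and 12 had a promoter peak in the libraries labelled replicate 1 and replicate 2. Ccl25, Prss16, Aire and Ly75 were among those with one in both. In neither library was there one at 8 of the 20 genes, among them Foxn1 and Psmb11, a regulator and a proteasome subunit that define this epithelium. Every result below therefore compares 2 libraries that stand apart, and with 1 library on each side it cannot be had without either of them. Fewer cells of a type and less open chromatin per cell cannot be told apart in such bulk libraries.

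A promoter becomes sensitive to DNase I where transcription factors and the transcription machinery displace nucleosomes, and a bound factor can protect a short stretch within it, which is read as a footprint. Promoters rich in CpG are open in most cell types, whereas promoters of genes used by a single cell type are often poor in CpG and open where their own regulators are present. Digestive enzyme genes are a textbook case of the second kind. In pancreatic acinar cells they are driven by the factor complex PTF1, made of PTF1A, an E protein and RBPJL or RBPJ, together with NR5A2 and GATA factors.

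The stretches below show what such members look like at sequence level. They are parts of member peaks, free of annotated exons, on mm10 and printed 5′ to 3′ on the strand of the gene from the GRCm38 RefSeq genome. Capitals mark bases within footprints of the library labelled replicate 1. Ctrb1, Cel, Cela2a and Pnlip encode chymotrypsinogen B, carboxyl ester lipase, an elastase and pancreatic lipase. Cpa1 and Reg1 encode carboxypeptidase A1 and a secreted lectin-like protein. Ptf1a encodes the acinar factor itself, Cldn3 a tight junction protein and Cnksr1 a scaffold of Ras signalling whose promoter had the highest signal of all members.
Ctrb1 (chr8:111691081-111691300, minus strand): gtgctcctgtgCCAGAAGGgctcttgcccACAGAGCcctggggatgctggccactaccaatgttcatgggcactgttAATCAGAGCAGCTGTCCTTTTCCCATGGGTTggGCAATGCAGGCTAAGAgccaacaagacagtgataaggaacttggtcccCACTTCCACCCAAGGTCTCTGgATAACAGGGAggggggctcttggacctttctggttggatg
Cel (chr2:28563404-28563600, minus strand): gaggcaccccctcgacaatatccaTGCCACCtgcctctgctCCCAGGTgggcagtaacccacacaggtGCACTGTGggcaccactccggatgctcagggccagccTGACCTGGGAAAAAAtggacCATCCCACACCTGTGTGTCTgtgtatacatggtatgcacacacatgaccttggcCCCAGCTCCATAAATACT
Cela2a (chr4:141819203-141819442, minus strand): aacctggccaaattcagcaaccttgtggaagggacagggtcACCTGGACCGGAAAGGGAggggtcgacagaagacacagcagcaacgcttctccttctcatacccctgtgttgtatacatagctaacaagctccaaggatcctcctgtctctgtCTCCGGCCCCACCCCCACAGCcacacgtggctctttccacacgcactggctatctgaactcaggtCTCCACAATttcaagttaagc
Pnlip (chr19:58670281-58670364, plus strand): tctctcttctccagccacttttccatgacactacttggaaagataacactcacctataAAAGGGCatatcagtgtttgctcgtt
Cpa1 (chr6:30639121-30639217, plus strand): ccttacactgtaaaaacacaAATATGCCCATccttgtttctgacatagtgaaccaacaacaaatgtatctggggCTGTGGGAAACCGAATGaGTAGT
Reg1 (chr6:78425661-78425900, plus strand): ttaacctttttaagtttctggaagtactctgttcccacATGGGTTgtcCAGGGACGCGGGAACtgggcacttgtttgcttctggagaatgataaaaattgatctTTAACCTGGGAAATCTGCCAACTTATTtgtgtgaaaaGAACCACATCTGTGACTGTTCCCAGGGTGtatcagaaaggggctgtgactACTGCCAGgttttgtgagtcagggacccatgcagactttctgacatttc
Ptf1a (chr2:19445441-19445662, plus strand): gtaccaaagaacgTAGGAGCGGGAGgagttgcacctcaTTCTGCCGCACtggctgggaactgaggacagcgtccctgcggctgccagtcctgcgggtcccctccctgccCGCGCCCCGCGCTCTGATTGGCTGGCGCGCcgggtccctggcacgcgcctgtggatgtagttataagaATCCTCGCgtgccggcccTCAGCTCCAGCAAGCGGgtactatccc
Cldn3 (chr5:134986081-134986213, plus strand): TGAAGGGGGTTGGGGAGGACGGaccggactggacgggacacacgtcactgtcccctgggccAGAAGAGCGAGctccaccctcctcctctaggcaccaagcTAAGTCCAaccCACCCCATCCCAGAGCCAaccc
Cnksr1 (chr4:134238421-134238640, minus strand): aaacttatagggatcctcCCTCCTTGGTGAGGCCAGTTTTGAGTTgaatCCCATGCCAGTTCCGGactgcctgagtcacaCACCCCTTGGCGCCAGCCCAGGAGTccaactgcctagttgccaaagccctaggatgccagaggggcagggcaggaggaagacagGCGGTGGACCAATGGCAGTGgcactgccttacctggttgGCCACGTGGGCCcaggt

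The Ctrb1 stretch held CAGCTG, an E-box of the kind bound by basic helix-loop-helix factors, at positions 86 to 91, whole within a footprint. The Cpa1 stretch held GTGGGAA, the core bound by RBPJ, at positions 77 to 83, also whole within a footprint. The Cel stretch held 4 matches to the E-box CAGGTG on either strand, 1 of them whole within a footprint and 3 in part, and a match to CAAGGTCA, the NR5A sequence, outside the footprints. In the Pnlip stretch TATAAA at positions 55 to 60 ran into the only footprint. The Ptf1a stretch held AGCCAAT, the NFY sequence, on the opposite strand at positions 126 to 132 in a footprint. The Reg1 stretch held TGTGGTT, the RUNX sequence, on the opposite strand at positions 143 to 149, whole within a footprint. Its RBPJ and AP-1 (TGANTCA) matches lay outside footprints. So did a GATA match in Pnlip, a CEBP (TTGCNNAA) match in Cela2a and AP-1 and CEBP matches in Cnksr1. A CEBP match in Ctrb1 and a CAGGTG match in Cela2a lay in part within footprints, and the Cldn3 stretch held no match. Positions are counted from 1 at the 5′ end of each stretch. A match describes letters in a window and is not evidence of a bound factor.

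The members at the 5 marker genes had signals between 0.580 and 8.19. The signal is the deposited value of each peak, whose scaling no source used here states. Signals are therefore not compared between the libraries. Ctrb1 had 1 member, a peak of 220 bp at chr8:111691081-111691300 with a signal of 8.19 and 6 footprints, ending 71 bp short of a start. The nearest peak of the library labelled replicate 2 lay 12700 bp away. Cela2a had 3 members with signals of 5.86, 5.49 and 2.96, and the strongest, at chr4:141819101-141819680, spanned a start and held 9 footprints. Pnlip had 4 members with signals of 4.92, 2.23, 0.651 and 0.580, the strongest at a start at chr19:58670281-58670620 with 3 footprints. Over the Pnlip gene and 5 kb on either side lay 40 peaks in the library labelled replicate 1, against 0 peaks of the shorter list in the library labelled replicate 2. Hnf4a, which encodes a nuclear receptor of liver, gut and pancreas, had 2 members with signals of 3.45 and 1.41. Its stronger peak, at chr2:163506661-163507060, held 6 footprints and touched an interval with a false discovery rate (FDR) of 0.0367 in the table of the library labelled replicate 2, which lists intervals under 0.05. Cldn3 had 5 members with signals of 5.26, 4.73, 2.24, 1.94 and 1.51, of which the 2 farthest downstream overlapped each other. The strongest, at chr5:134986081-134986340, spanned the start and held 7 footprints.

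**Figure D1:**
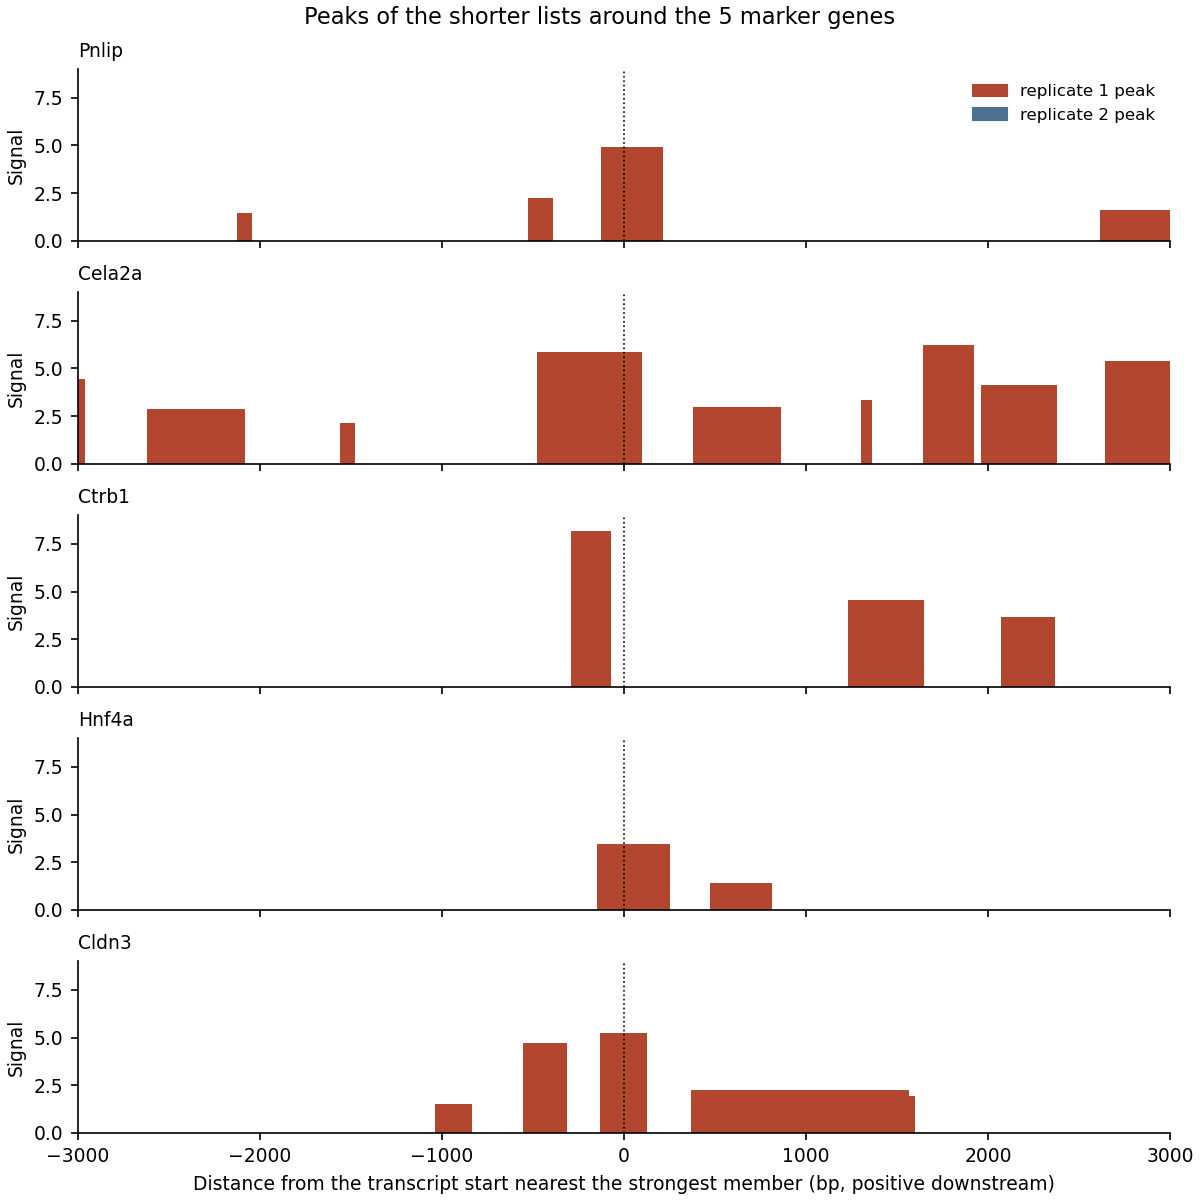
Peaks of the shorter lists around the 5 marker genes. Horizontal axis, distance in bp, positive downstream, from the transcript start nearest to the strongest member, which lies 17908 bp inside Pnlip, 6958 bp inside Cela2a and at the 5′ end of the other genes; vertical axis, deposited signal; bars are as wide as the peaks. All bars belong to the library labelled replicate 1, up to a signal of 8.19 at Ctrb1, and no peak of the shorter list of the library labelled replicate 2 falls in these windows.

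Lipase and amylase genes mostly carried open promoters in the library labelled replicate 1. Of 9 such genes, 7 had a promoter peak there, against 1 in the library labelled replicate 2, and 6 had one in the library labelled replicate 1 only. All 7 had a member. Over all 21951 protein-coding genes, 6341 (28.9%) had a member and 867 (3.95%) were open only in the library labelled replicate 1. The strongest member of the list was at Cel, whose product hydrolyses cholesterol esters, with a signal of 8.54, 8 footprints and 14480 bp to the nearest peak of the library labelled replicate 2. Pnliprp1, a lipase-related gene, had 9 members with a highest signal of 6.39. Clps encodes colipase, the cofactor of pancreatic lipase, and its stronger member had a signal of 4.26. The amylase genes Amy2a5 and Amy2b had no promoter peak in either library. They are near-identical copies, and how reads were shared between such copies is not stated in the sources used here, so their values are uncertain. Within 5 kb of them lay 4 and 5 peaks in the library labelled replicate 1. Within 5 kb of the 9 genes lay 150 peaks of the shorter list in the library labelled replicate 1, against 2 of the shorter list in the library labelled replicate 2.

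Protease genes gave the same picture. Promoter peaks were present at 14 of 16 in the library labelled replicate 1, against 2 of 16 in the library labelled replicate 2, and 12 had one in the library labelled replicate 1 only. Together they held 58 members. After Ctrb1, the strongest were Cela3b, an elastase gene, with a signal of 6.70 and 5 footprints, and Ctrc, the gene of chymotrypsin C, with 6.56 and 7 footprints. Cela1, another elastase gene, had more members than any other gene, 17 around 9 distinct transcript starts, with signals between 2.26 and 5.92. It was not open in 1 library only, since the library labelled replicate 2 had a promoter peak there with a signal of 5.10. The trypsinogen genes Prss1 and Prss3 had no promoter peak in either library. They too belong to a family of near-identical copies, so the values of its genes are uncertain, also for copies with a promoter peak.

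The remaining secretory genes of acinar cells had promoter peaks at 13 of 17 in the library labelled replicate 1, against 0 of 17 in the library labelled replicate 2. Cuzd1, which encodes a zymogen granule membrane protein, had 1 member with a signal of 5.33 and 4 footprints, 40260 bp from the nearest peak of the library labelled replicate 2. Reg1 had 1 member with 5.17 and 6 footprints. Tff2, a trefoil peptide gene, and Sycn, the gene of the granule protein syncollin, had strongest members of 4.14 and 4.12. Reg3a and Reg3b had no promoter peak in either library. The median of the strongest member signal per gene was 4.26 for lipases and amylases, 4.16 for proteases and 3.52 for the other secretory genes, beside 1.14 over all protein-coding genes with a member. The 3 lists were drawn up with earlier results of these data known, so these counts describe the members and are not independent evidence of their kind.

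Genes of the factors that drive the acinar programme were mostly open in both libraries. Of 9, all had a promoter peak in the library labelled replicate 1, and 8 had one as well in the library labelled replicate 2. The exception was Ptf1a, with 2 members of which the stronger had a signal of 6.95 and 9 footprints at chr2:19445441-19445780, with 14111 bp to the nearest peak of the library labelled replicate 2. Members also lay at Mecom (3.18), at Nr5a2, which encodes a nuclear receptor of acinar cells (2.59), and at Gata6 (2.13), but each of these genes also had a promoter peak in the library labelled replicate 2. The strongest promoter peak of that library had a signal of 0.378 at Gata4, 0.424 at Nr5a2, 0.555 at Gata6 and 0.655 at Creb3l1. It had 2.87 at Mecom, 2.97 at Rbpjl, 3.78 at Bhlha15 and 13.0 at Xbp1. Within 5 kb of the 9 genes lay 176 peaks of the shorter list in the library labelled replicate 1, against 22 of the shorter list in the library labelled replicate 2. With the 5′ end of each gene as its only start, 4 of the 9 genes had a promoter peak in the library labelled replicate 1 only, in place of 1.

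Endoderm factor genes were more often open in the library labelled replicate 1. Of 18, 16 had a promoter peak in the library labelled replicate 1, against 7 in the library labelled replicate 2, and 10 had one in the library labelled replicate 1 only. Sox9, a factor of duct cells and progenitors, had its strongest member at 5.93, but a peak of the library labelled replicate 2 lay 121 bp away, and the strongest promoter peak of that library at Sox9 had a signal of 0.324. Nr0b2, an orphan nuclear receptor gene, had 4 members, the strongest at 5.80 with 8 footprints. Onecut1, whose product acts in early pancreas and liver, had 7 members with a maximum of 5.76. Pdx1, a regulator of pancreas formation and of beta cells, had 3 members with a maximum of 4.01, 23020 bp from any peak of the library labelled replicate 2. Foxa2, a pioneer factor gene, had 8 members. Those of 1220 and 1800 bp in width held 21 footprints each, the most in any member. Cdx2, an intestinal factor gene, was open in neither library.

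Most epithelial genes were open in both libraries, while 15.6% of junction and polarity genes and 27.3% of keratin and regulator genes had promoter peaks in the library labelled replicate 1 only, beside 3.95% over all protein-coding genes. Of 32 junction and polarity genes, 28 had a promoter peak in the library labelled replicate 1, against 25 in the library labelled replicate 2, and 5 had one in the library labelled replicate 1 only. Besides Cldn3, the strongest members lay at Cldn8 (4.99) and Ocln (4.26), both tight junction genes, and at Pkp3 (3.53), a desmosome gene. Pkp3 also had a promoter peak in the library labelled replicate 2. Of 22 keratin and epithelial regulator genes, 19 and 14 had promoter peaks in the libraries labelled replicate 1 and replicate 2, and 6 had one in the library labelled replicate 1 only. Esrp2, which encodes an epithelial splicing regulator, shared with a non-coding transcript on the other side a member of 9.19, the third highest of all. Prss8 (6.34) and Tmprss2 (4.01) encode membrane-anchored serine proteases, and Ovol2 (4.39) encodes an epithelial zinc finger factor. Esrp2, Tmprss2 and Ovol2 also had a promoter peak in the library labelled replicate 2, and the Ovol2 member lay 65 bp from a peak of that library. Of 11 duct genes, 10 had a promoter peak in the library labelled replicate 1, against 5 in the library labelled replicate 2, and 5 had one in the library labelled replicate 1 only. The strongest duct members were at the keratin gene Krt19 (3.43) and the mucin gene Muc1 (3.03). Muc1 also had a promoter peak in the library labelled replicate 2, and its strongest member lay 240 bp from a peak of that library.

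Islet hormone genes were nearly absent from the members. The insulin gene Ins2 and the glucagon gene Gcg had no promoter peak in either library. Neither had the hormone genes Sst, Ppy and Iapp, which were named after their values were seen. Ins1 had 1 member of only 0.290 with no footprint, and the library labelled replicate 2 had a promoter peak of 0.262 there. Of the 26 islet genes, 12 had a promoter peak in the library labelled replicate 1, against 11 in the library labelled replicate 2. A promoter peak in the library labelled replicate 1 only was found at 3 (11.5%), beside 3.95% over all protein-coding genes, and 4 (15.4%) had a member, beside 28.9%. The strongest islet member was at Nkx2-2, an endocrine factor gene, with 2.39. Genes of protein folding and secretion, which secretory cells use heavily, were open in both libraries, at 32 and 30 of 33. Of these, 2 had a peak in the library labelled replicate 1 only, Pdia2 (4.75) and Erp27 (4.44), which encode a disulphide isomerase and an isomerase-like protein of the endoplasmic reticulum. Manf (4.66) had a member that abutted a peak of the library labelled replicate 2.

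Lists of other tissues and cells each had at most 3 genes open in the library labelled replicate 1 only. Such genes numbered 3 of 23 for liver, 2 of 18 for intestine and stomach, 0 of 9 for lung, 1 of 10 for kidney, 0 of 14 for B cells, 1 of 18 for myeloid cells, 1 of 14 for endothelium, 2 of 16 for fibroblasts and mural cells, 1 of 8 for adipose tissue, 1 of 12 for neurons and glia and 0 of 16 for housekeeping genes. As shares these were 13.0% for liver, 12.5% for both fibroblasts and adipose tissue, 11.1% for intestine and stomach and 10% for kidney. They were 8.33% for neurons and glia, 7.14% for endothelium and 5.56% for myeloid cells. All of these were above the 3.95% over all protein-coding genes, and only lung, B cell and housekeeping genes, at 0%, were below it. Genes with a member, open in both libraries or not, made up between 7.14% (B cells) and 56.3% (housekeeping genes) of these lists, beside 28.9% over all protein-coding genes. At Nphs1, which encodes nephrin, 7 members reached 7.27. At Esam, an endothelial adhesion gene, the strongest member had 4.05. Of the 29 T cell genes, 0 had a promoter peak in the library labelled replicate 1 only, against 20 in the library labelled replicate 2 only. Even so, 4 T cell genes had a member, the strongest 2.23 at Satb1, 202 bp from a peak of the library labelled replicate 2. Likewise 9 of 16 housekeeping genes had a member, such as Eef1a1 (4.21), whose only member lay 140 bp from a peak of the library labelled replicate 2. In both lists, every gene with a member also had a promoter peak of the library labelled replicate 2, at a place that the member did not overlap.

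**Figure D2:**
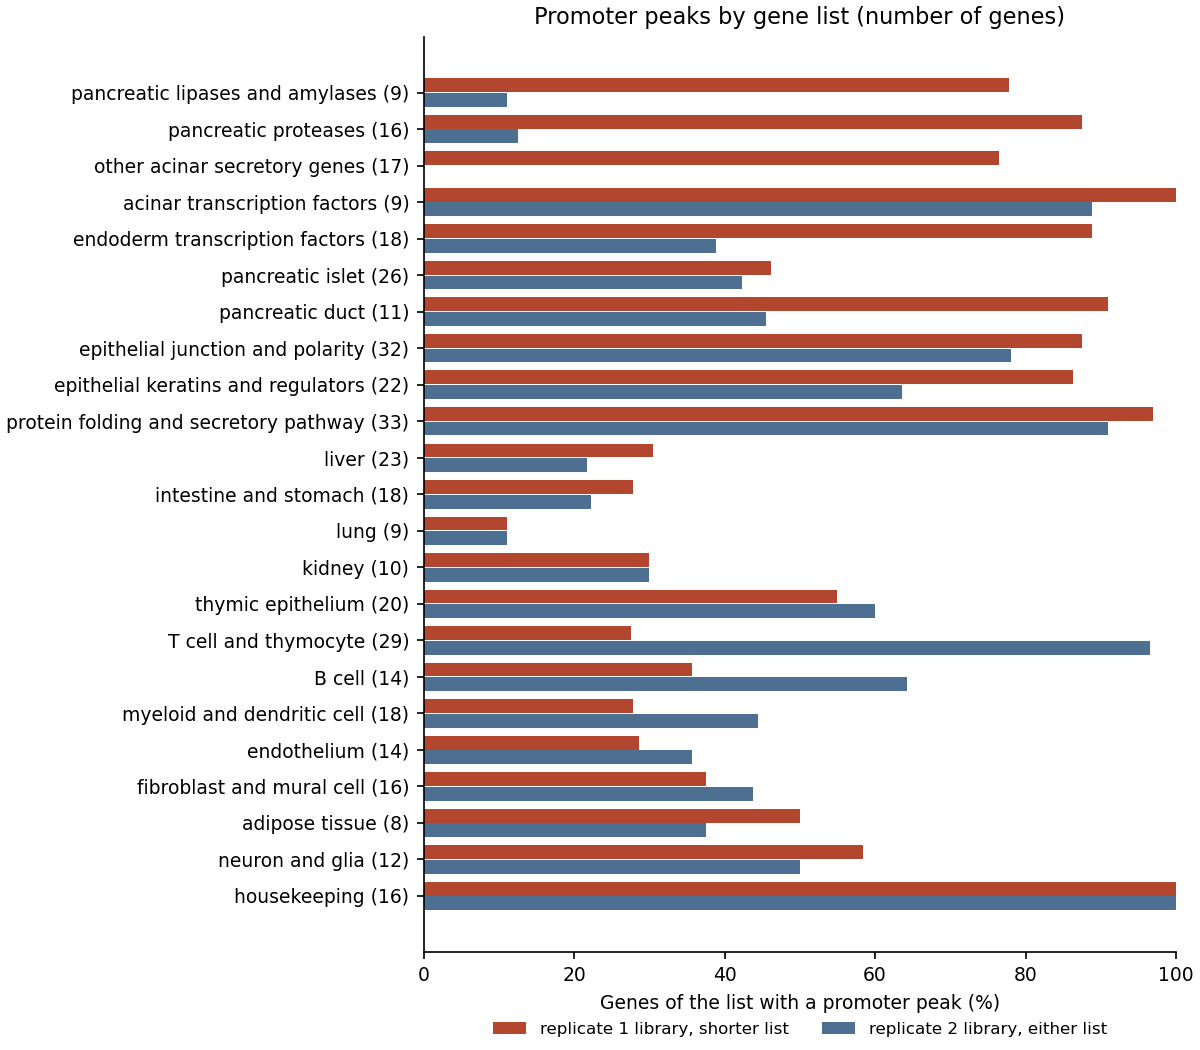
Share of the genes of each of 23 lists that had a promoter peak, with the number of genes in brackets. Bars give the library labelled replicate 1 (shorter list) above the library labelled replicate 2 (either list); 77.8% against 11.1% of lipase and amylase genes and 27.6% against 96.6% of T cell genes were open.

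Most genes with a member were open in both libraries. Of the 6341 protein-coding genes with a member, 5480 (86.4%) also had a promoter peak in the library labelled replicate 2, and 861 did not. Over all 21951 protein-coding genes, 14190 (64.6%) had a promoter peak in that library. Of the 13843 with a promoter peak in the library labelled replicate 1, only 867 had none in the library labelled replicate 2. Of these 867 genes, 766 held a footprint within a member, a count that was not made for the other genes. A further count is of the 2687 members (24.2%) that lay at no gene with a promoter peak of the library labelled replicate 2. In the other direction, 1214 protein-coding genes had a promoter peak in the library labelled replicate 2 only. Either list of that library counted, but only the shorter list of the library labelled replicate 1, so 867 and 1214 are not like for like. By the type of the nearest gene, 8955 members (80.6%) lay at protein-coding genes, 618 at lincRNA, 504 at antisense and 137 at microRNA genes. The share of promoter peaks that were members was 31.9% at protein-coding, 44.9% at lincRNA, 44.0% at antisense and 45.4% at microRNA genes.

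The distance to the nearest peak of the library labelled replicate 2 split the members into unlike groups. A split at 200 and 1000 bp was added after the data had been seen. Beyond 1000 bp lay 4685 members (42.2%), called isolated members here, between 200 and 1000 bp lay 4164 (37.5%), and within 200 bp lay 2264 (20.4%). Of the last group 394 lay within 20 bp of a peak of the library labelled replicate 2, and 178 of them abutted it. Just outside the rule, 227 other promoter peaks overlapped a peak of the library labelled replicate 2 by at most 20 bp, and 3043 were covered by one over less than 50% of their length. Of all members, 571 lay more than 900 bp from a start, close to the limit of the promoter window.

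The strongest members show the same split. Cnksr1 was isolated, with a signal of 11.3, 5 footprints and no listed FDR interval of the library labelled replicate 2. So was Cel. Mkx, which encodes a homeobox factor, had 9.03 and lay 3060 bp from the nearest peak of the library labelled replicate 2. Fcho2 (9.45), Plekhg2 (9.18), Iqcd (8.88), Garnl3 (8.73), Lims1 (8.51) and Ndufs7 (8.51) lay between 0 and 140 bp from a peak of the library labelled replicate 2. Each of these 6 held between 2 and 7 footprints of the library labelled replicate 2 as well, and the lowest FDR in that library's table was between 8.86e-98 and 3.41e-57. In these 6 places the library labelled replicate 2 was open by its FDR table although its peak lists had no overlapping peak. The rest of the 10 strongest was the Esrp2 promoter, 40 bp from a peak of the library labelled replicate 2 and without a listed FDR interval of that library. At the other end, the 5 weakest members had signals between 0.110 and 0.133, and 4 of them lay near Best1 or Rab3il1 on chromosome 19.

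Members were weaker than the other promoter peaks of the same list. Their median signal was 0.996 (interquartile range 0.604 to 1.68), against 2.89 (1.37 to 5.43) for the 21915 others, and isolated members had a median of 1.05. In the weakest decile of promoter peaks 67.3% were members, in the fifth decile 40.1% and in the strongest 1.73%. The median width was 220 bp for members and 260 bp for others. A transcript start lay inside 20.6% of members, 29.3% of isolated members and 56.9% of the others. Signal and membership move together here, and how much of membership comes from weak peaks near the calling threshold was not tested.

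**Figure D3:**
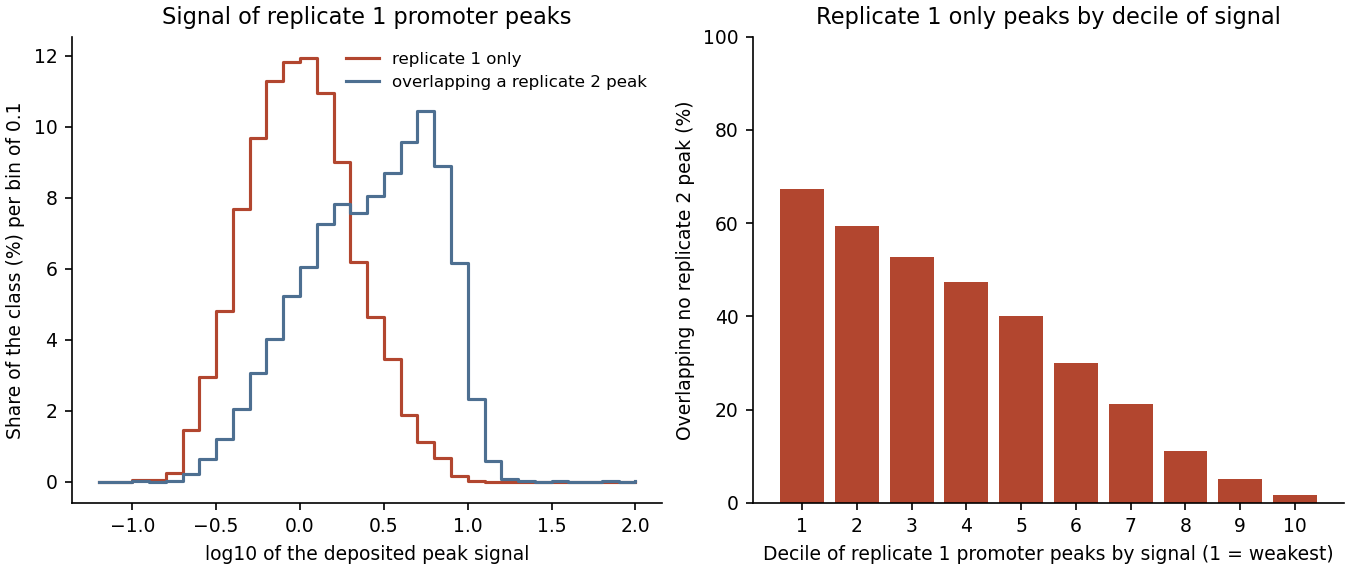
Left, distribution of the deposited signal (log10, bins of 0.1) of replicate 1-only promoter peaks and of those overlapping a peak of the library labelled replicate 2, as a share of each class. Right, share of promoter peaks that were replicate 1-only in each decile by signal; the share is 67.3% in the weakest decile and 1.73% in the strongest.

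Footprints of the library labelled replicate 1 were common in members. At least 1 footprint touched 57.2% of members (95% Wilson interval 56.3 to 58.1), against 86.4% (86.0 to 86.9) of the other promoter peaks and 76.6% of all promoter peaks. Such intervals cover the counting of peaks only and not variation between libraries. The share was 78.8% among isolated members, 36.2% among those 200 to 1000 bp from a peak of the library labelled replicate 2 and 51.1% among those within 200 bp. Footprints covered 7.85% of the bases of members, 11.4% of those of isolated members and 19.95% of those of the others, and their median width was 9 bp in members and 11 bp in the others.

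At matched signal, a larger share of isolated members than of the others held footprints in the 2 weaker quartiles. In the weakest quartile the share with a footprint was 63.0% for isolated members, 38.2% for all members and 54.2% for the others. In the second quartile the shares were 85.4%, 59.7% and 69.7%, in the third 98.8%, 94.5% and 97.8%, and in the strongest 100%, 100% and 99.9%. No source used here names the footprint caller or its threshold, and the dependence on signal is as large as any difference between the classes.

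**Figure D4:**
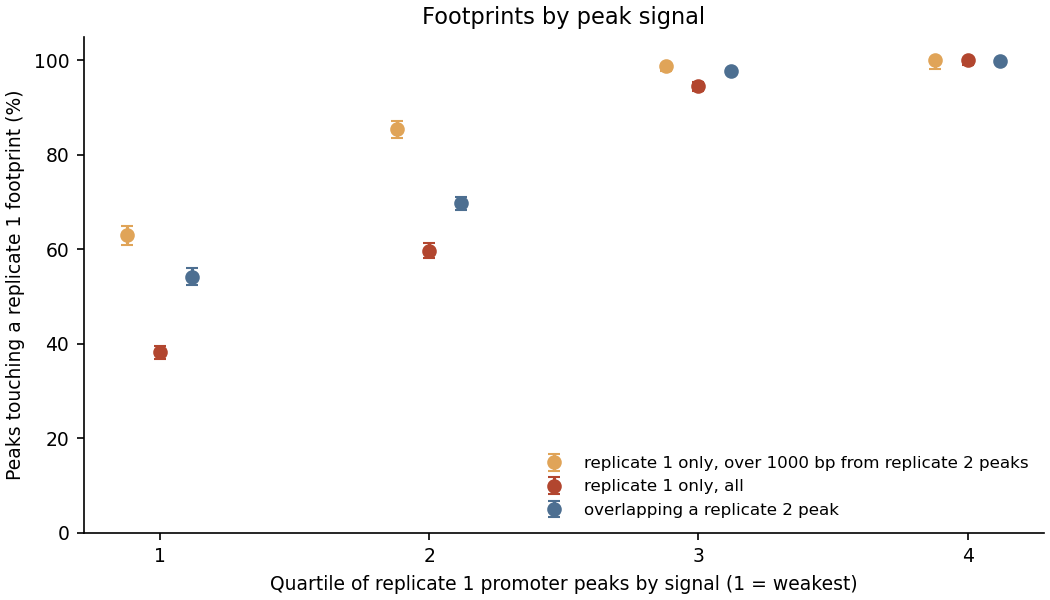
Share of peaks touching a footprint of the library labelled replicate 1, by quartile of promoter peaks by signal, for isolated members (over 1000 bp from any peak of the library labelled replicate 2), all members and the other promoter peaks. Bars are 95% Wilson intervals; in the weakest quartile the points stand at 63.0%, 38.2% and 54.2%, and in the strongest all are at 99.9% or above.

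The files of the library labelled replicate 2 hold further values at the member places, beside its peak lists. Its footprints touched 724 members (6.51%), against 86.1% of the other promoter peaks. By distance they touched 0 of 4685 isolated members, which were themselves chosen by their distance from the peaks of that library, 2.62% of those between 200 and 1000 bp and 27.2% of those within 200 bp. Its FDR table listed an interval under 0.05 in 3218 members (29.0%) and under 0.001 in 2464 (22.2%). Among isolated members these were 92 (1.96%) and 0, and among those within 200 bp they were 75.5% and 63.0%. The FDR table and the footprints come from the same reads as the peak lists, so they are not a replicate.

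Members had less GC and fewer CpG dinucleotides than the other promoter peaks. In the 200 bp around the peak centre the median GC content was 53.5% (interquartile range 48.5 to 59.5), against 63.5% (56.5 to 69.5). The ratio of observed to expected CpG had a median of 0.384 in members, 0.287 in isolated members and 0.757 in the others. Repeat-masked bases made up 9.02% of member windows and 6.11% of the others. By chromosome the share of promoter peaks that were members ran between 28.9% on chromosome 13 and 36.4% on chromosome 18, leaving aside the Y chromosome with 0 of 7.

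Motif content differed along with base composition. Of 29 consensus sequences, each searched on both strands of the 200 bp windows, 19 were in a larger share of member windows than of the other windows, 9 in a smaller share and 1 in equal shares of 0. The HNF4 sequence CAAAGTCCA was in 0.630% of member windows, 0.790% of isolated member windows and 0.192% of the others. The NR5A sequence CAAGGTCA was in 2.17%, 2.41% and 0.662%, and the GATA sequence AGATAA in 7.82%, 8.45% and 2.98%. The FOX sequence TGTTTAC was in 3.29%, 4.01% and 1.71%. Sequences of factors used by T cells were also in larger shares of member windows: RUNX, TGTGGTT, was in 3.13%, 3.33% and 2.19%, and TCF/LEF, ATCAAAG, in 2.23%, 2.11% and 1.24%. Among E-boxes, CAGCTG was in 17.9%, 22.4% and 12.3%, CAGGTG in 23.1%, 26.0% and 15.9% and CATATG in 2.68%, 2.92% and 1.04%. In the 200 bases upstream of 32851 RefSeq gene starts the shares were 0.317% for the HNF4, 0.992% for the NR5A, 7.80% for the GATA and 2.51% for the FOX sequence. There they were 3.49% for RUNX, 2.45% for TCF/LEF, 10.9% for CAGCTG, 13.9% for CAGGTG and 2.65% for CATATG, so that the shares in members were near these for GATA and CATATG and below them for RUNX and TCF/LEF.

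Sequences of some widely used factors were scarcer in members than in the other promoter peaks. The SP/KLF sequence GGGCGGG was in 9.06% of member windows, 8.03% of isolated member windows and 33.3% of the others. ETS, CCGGAAG, was in 2.14%, 1.64% and 10.2%, NRF1 in 0.369%, 0.406% and 6.11%, the CRE sequence TGACGTCA in 0.306%, 0.448% and 2.11%, and CTCF in 0.684%, 1.09% and 3.29%. Upstream of the RefSeq gene starts the shares were 22.1% for SP/KLF, 6.29% for ETS, 3.49% for NRF1, 1.47% for CRE and 0.728% for CTCF. The CTCF share was thus near this value in members and above it in isolated members, while the other shares in members were below theirs. The SP/KLF, ETS, NRF1 and CTCF differences kept their direction in windows of GC content up to the median of all promoter windows and above it, as did those for HNF4, NR5A, GATA, TCF/LEF and the 3 E-boxes. The RUNX difference, 0.941 percentage points in all windows, was -0.0412 up to the median GC and -0.0181 above it. For FOX the difference, members minus others, was 1.25 percentage points up to the median GC and 0.00463 above it. Because the consensus sequences are short and base composition differs, the shares are descriptions of sequence.

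**Figure D5:**
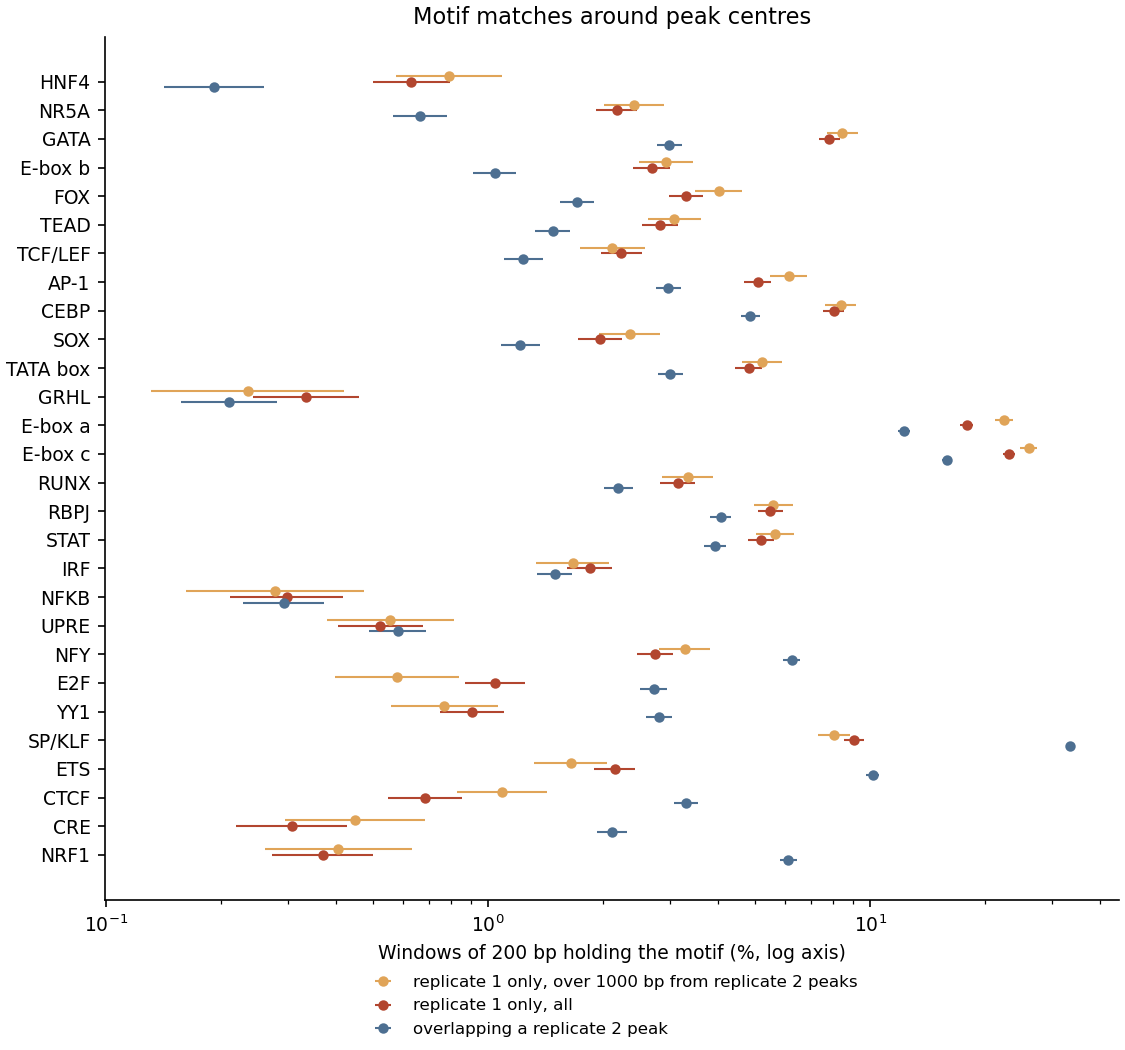
Share of 200 bp windows holding each of 28 consensus sequences (log axis, in percent, with 95% Wilson intervals) in isolated members, all members and the other promoter peaks, ordered by the ratio of all members to others. E-box a is CAGCTG, E-box b has the letters CATATG, and E-box c stands for CAGGTG. HNF4, at the top, stands at 0.790%, 0.630% and 0.192%, and NRF1, at the bottom, at 0.406%, 0.369% and 6.11%.

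The rule did not use motif matches within footprints. The footprints still come from the same reads as the peaks of the library labelled replicate 1, so they are not independent of the rule. Of 1080 CAGCTG matches in isolated member peaks, 26.9% (24.3 to 29.6) lay whole within a footprint of the library labelled replicate 1, against 18.0% (16.6 to 19.5) of 2752 matches in the other promoter peaks. For CAGGTG these were 14.3% and 15.6%, for NR5A 13.5% and 15.3%, and for SP/KLF 26.6% and 52.5%. They were 0% (0 of 163 matches) and 2.59% for FOX, 4.21% and 5.21% for GATA, 4.93% and 7.68% for RUNX, and 4.55% and 16.5% for TCF/LEF. Besides CAGCTG, the share was larger in isolated members for HNF4 (5 of 32 matches against 3 of 42), RBPJ (13.5% and 11.7%) and AP-1 (4.21% and 3.05%). The CAGCTG share was larger in isolated members, while footprints covered 11.4% of their bases, against 19.95% in the others. A TATAAA sequence lay 40 to 20 bp upstream of a start in 1.57% of the 2293 members holding a start (36 places), in 1.97% of isolated members holding one and in 0.650% of the 12470 others holding one.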

How the data were processed

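DNase-seq was measured in 2 libraries labelled thymus, on mm10 per the labels. The deposited peak lists give a signal per peak, the deposited FDR tables give a p-value-like FDR for intervals under 0.05, and the deposited footprint lists give a score of 0.01 in every row, so only footprint positions were used. Per the deposited notes, each library's own filtered reads gave its lists. No aligner, caller, calling threshold or signal scaling is stated in the sources used here. Depth is unknown.

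Promoter peaks lay within 1000 bp of any of 132670 distinct starts of 141767 GENCODE vM21 transcripts. A footprint or FDR interval counted when it touched the peak. GC content and motifs were read from GRCm38.p6, whose chromosome ends no peak exceeded, in 200 bp around peak centres. Genes near a peak were those with a start in the window. Counts, medians and 95% Wilson intervals were computed with Python 3.11.15, numpy 2.4.6, pandas 2.3.3, scipy 1.17.1 and pysam 0.24.0, and the code was tested on simulated data. No test was made, because 1 library stands on each side.

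The members, the 23 lists (400 genes) and the 29 consensus sequences were chosen with earlier results of these data known. The rule for named genes took the 5 markers, the 10 members of highest signal, up to 4 members of highest signal per list, the 5 genes with most members, the 5 members with most footprints and the 5 weakest, the members nearest to the threshold, and up to 2 list genes with no promoter peak. The text gives a selection. The split by distance, the genes named as exceptions, the printed stretches, the microRNA genes and the paired consensus in the closing section were chosen after seeing values. Alternatives changed the promoter window, the set of starts, the peak lists, the overlap rule, the signal and the sequence window.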

Additional observations from a re-analysis of the deposited data

How the results depend on the processing

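The number of members, 11113, lay between 7631 and 16163 under 8 alternatives and moved by over 1.5 times under 3: it was 17490 with the longer peak list of the library labelled replicate 1, 4165 with the stronger 50% of its peaks and 4685 without peaks of the other library within 1000 bp, the last chosen after seeing the data. The share of promoter peaks that were members, 33.6%, was 28.6% and 38.8% with promoter windows of 500 and 2500 bp, 29.7% with gene 5′ ends and 29.7% with protein-coding transcript starts. It was 42.2% with the longer peak list of the library labelled replicate 1, 39.9% with the shorter list of the library labelled replicate 2 and 42.9% when sharing needed 50% cover. It was 26.8% and 14.2% without peaks of the library labelled replicate 2 within 200 and 1000 bp, 19.8% in the stronger 50% and 23.9% without an FDR interval of that library, an alternative also chosen after seeing the data. The share with a footprint, 57.2%, was, in the same order of settings, 60.1%, 62.3%, 52.7%, 51.0%, 55.7%, 58.3%, 60.8%, 58.8%, 78.8%, 83.3% and 63.2%, and 56.2% with footprints whole within the peak. Median GC, 53.5%, was 55.0% and 52.5% with windows of 500 and 2500 bp, 54.5% with protein-coding starts, 52.5% with the longer list, 55.0% with 50% cover, 53.0% without peaks within 200 bp, 56.5% in the stronger 50%, 52.5% without an FDR interval and 55.0% in 100 bp windows. Of 29 motifs, 19 were higher in members, against 12 in windows of GC above the median. Genes of the lists with a member numbered 163, and 102 without peaks within 1000 bp. The 6 lipase and amylase, 12 protease and 13 other secretory genes open in the library labelled replicate 1 only numbered between 5 and 7, 12 and 13, and 10 and 15 under these alternatives. The counts moved further in smaller lists: the 5 duct genes were 2 with gene 5′ ends and 3 in the stronger 50%, the 3 islet genes were 1 in the stronger 50% and 6 with the longer list, and the 6 keratin and regulator genes were 10 with the shorter list of the library labelled replicate 2. The causes were not tested.

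Members minus others changed sign on a side of the median GC for 9 motifs, in percentage points: CEBP to -0.0321, GRHL to -0.0278, SOX to -0.0362 and the TATA box to -0.232 above it, RUNX to -0.0412 and -0.0181, STAT to -0.229 and -0.176 and IRF to -0.399 and -0.0822 up to the median and above it, and UPRE to 0.0945 and NFKB to -0.0785 up to it. For NFKB, at 0.00491 in all windows, the sign also changed under 8 other alternatives. No paired analysis was possible because the 2 libraries form 1 group, and neither library could be left out because the rule needs both. Depth is unknown, so how far it sets the peak calls of either library cannot be stated.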

Other observations

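Some microRNA genes had strong members. Mir375, a microRNA gene of endocrine and epithelial cells, had a member with a signal of 7.27 and 10 footprints of the library labelled replicate 1 at chr1:74900781-74901060, 740 bp from the nearest peak of the library labelled replicate 2, with an FDR of 0.0361 in that library. Mir6394 (5.91) and Mir3105 (3.91) had members spanning their starts, 38080 and 29351 bp from the nearest peak of the library labelled replicate 2. Mir7076 had members of 4.57 and 3.68, and both lay inside the Ctrb1 gene, so they cannot be assigned to the microRNA gene alone. Mir193a had a member of 4.48, only 40 bp from the nearest peak of the library labelled replicate 2. That member held 3 footprints of the library labelled replicate 2, and its lowest FDR in that library was 4.75e-19. The microRNA genes were picked by signal after values were seen.

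A paired sequence was searched after the printed stretches had been read. It is the E-box CANNTG followed, 5 or 6 bases on, by TTCCCA, on either strand, which resembles the pair of boxes bound by PTF1. It was in 100 of 11113 member windows (0.900%, 0.740 to 1.09), in 66 of 4685 isolated member windows (1.41%, 1.11 to 1.79) and in 32 of 21915 windows of the other promoter peaks (0.146%, 0.103 to 0.206). In the 200 bases upstream of RefSeq gene starts it was in 0.152%. Of 109 members at the 3 lists of acinar secretory genes, 2 held it, at Ctrb1 and Reg1, both within footprints as the capitals above show. The sequence was taken from these same peaks, so its share in members is a description.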
